A study of Arabidopsis with 12 samples.

Results

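The mac3a3b mutant of Arabidopsis thaliana, named for the genes MAC3A and MAC3B, was compared with itself: 3 libraries labelled 3 days against 3 libraries labelled control, 6 of the 12 libraries in the series. All genes entered, 37825 rows of the deposited table, of which 22462 reached 1 TPM (a length-corrected share of all transcripts in a library) in at least 3 of the 12 libraries and were tested. The other 6 libraries are wild-type (WT) seedlings with the same pair of labels. Messenger RNA of seedlings, enriched with oligo dT, was sequenced. Seedlings of all groups grew on diluted MS medium with 1.2% sucrose, and the heat treatment was at 37 °C. The series text places sampling at 0 hours and 3 days after heat had ended, whereas the titles call the first group control, and the labels do not say how long the heat lasted. No heat-free group of the later age was analysed here, so heat, recovery and 3 more days of development cannot be told apart. Neither the alleles nor separate cultures are stated, so the p-values measure the spread between these libraries, which may be technical.

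MAC3A and MAC3B encode U-box ubiquitin ligases related to yeast PRP19 and belong to the MOS4-associated complex, which works with the spliceosome in removing introns. Heat unfolds proteins, and plants answer through heat shock transcription factors that switch on chaperone genes. Unfolded proteins in the endoplasmic reticulum (ER) are sensed separately, and damaged proteins are removed by the proteasome and by autophagy. Chaperone transcripts usually decline after heat ends, while photosynthesis and growth genes return.

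At 3 days the mutant seedlings held far more chaperone, ER folding, proteasome and autophagy transcripts than at control. They held far fewer transcripts for light harvesting, chlorophyll synthesis, glucosinolates, cell growth, cell division and the anthocyanin genes listed here. In limma, with an adjusted p under 0.05, 8857 genes rose (39.4% of those tested) and 10438 fell (46.5%), so that 85.9% were called in 1 direction or the other. At least 2-fold higher were 4959 genes (22.1%) and at least 2-fold lower 6693 (29.8%). A log2 change of at least 5, or 32-fold, was reached by 195 genes that rose and 166 that fell. Because a call alone was the common state, groups of genes are described below by their counts and by their median log2 change relative to the median of all genes tested, which was -0.13. That median moved to 0.01 under median-of-ratios scaling and to 0.07 under quantile normalization. Log2 changes are on the log2(TPM + 1) scale and understate the change of genes near 0. Levels given below as a mean ± SD are in TPM over the 3 libraries of a group. Where libraries of the 2 groups are said not to overlap, the share of all genes without overlap was not counted. Most genes so described were picked for large changes, so the lack of overlap describes them and adds no support.

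**Figure D1:**
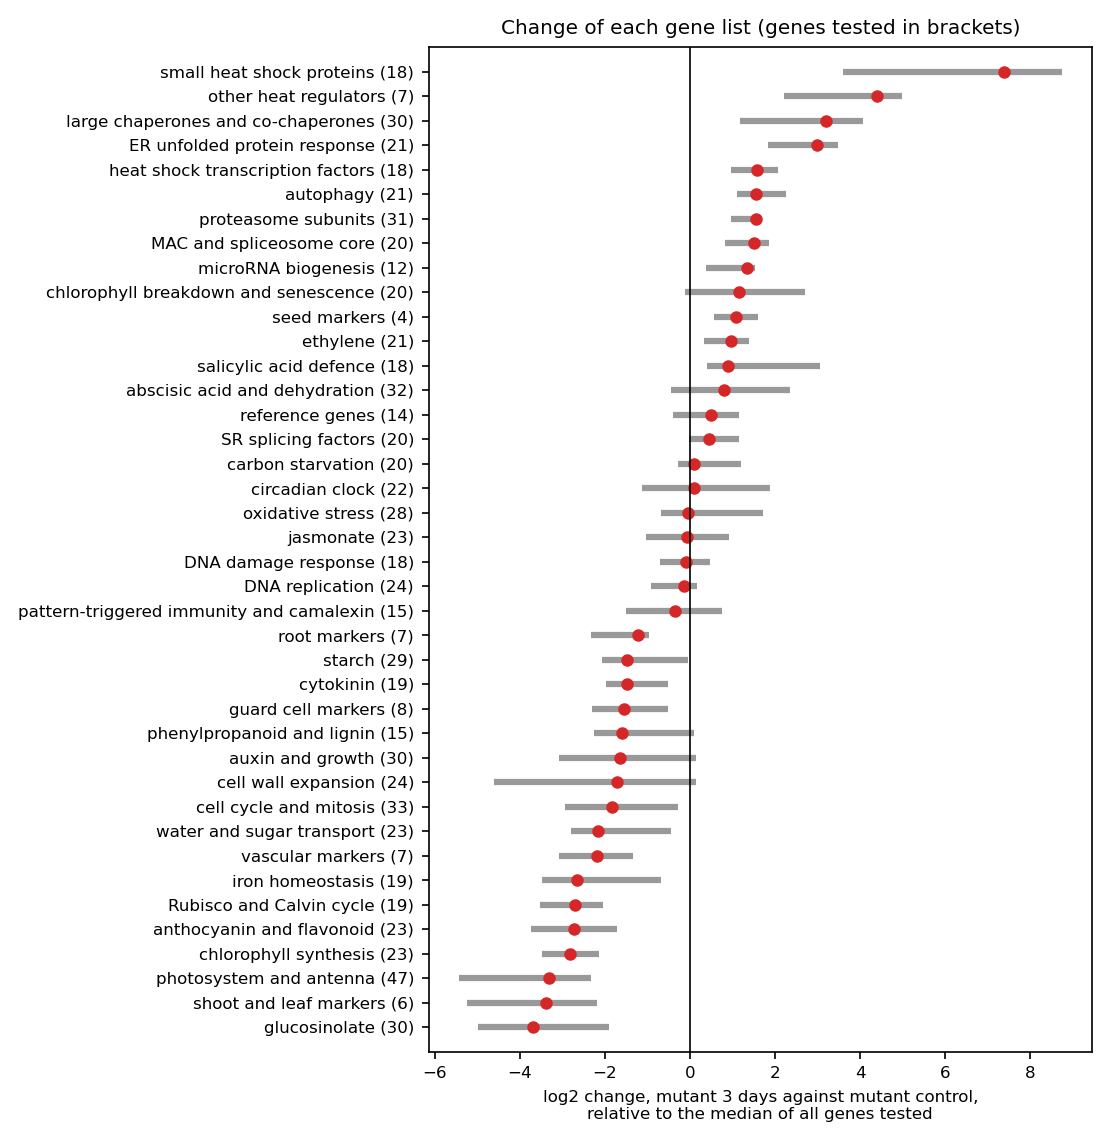
Median log2 change (red points) and middle 50% of genes (grey bars) of 40 gene lists in mutant 3 days against mutant control, relative to the median of all genes tested. Small heat shock proteins lay highest at 7.38 and glucosinolate genes lowest at -3.69.

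The libraries differed in make-up as well. Nuclear ribosomal RNA loci summed to 5836 to 8110.2 TPM in the control libraries and to 35408 to 41121 TPM at 3 days, and mitochondria-encoded genes to 195 to 263 and 12979 to 17191 TPM. Between 19565 and 19810 genes reached 1 TPM at control, against 18310 to 18713 at 3 days. Replicates within the mutant groups correlated at r = 0.985 to 0.988 over genes. The part of RNA quality or of this shift in make-up in the results below was not tested.

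The targeted genes were checked first. MAC3A, 1 of the targeted genes, stood at 10.3, 9.14 and 9.77 TPM in the control libraries and at 5.60, 6.81 and 5.95 TPM at 3 days (log2 change -0.60 ± 0.066 SE, adjusted p = 3.77e-06). MAC3B stood at 9.89, 10.6 and 10.7 TPM in the control libraries and at 9.74, 8.77 and 9.81 TPM at 3 days (log2 change -0.12 ± 0.055 SE, adjusted p = 0.054). In WT control libraries MAC3A was 33.4, 34.9 and 35.8 TPM and MAC3B 76.2, 71.8 and 69.7 TPM, all above every mutant library. The fall of MAC3A passed the test, although not under quantile normalization (log2 change -0.11). MAC3B did not pass, and its small change turned to 0.05 under median-of-ratios scaling and to 0.23 under quantile normalization, where it was called higher.

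Most other genes of the splicing machinery rose. Of 20 MAC and spliceosome core genes, 17 rose, 1 fell and 2 did not pass the test, and the list median lay at 1.5 once that of all genes was subtracted, as for each list below. MAC5C, an RNA-binding member of the MOS4-associated complex, stood at 1.16, 0.75 and 1.47 TPM in the control libraries and at 34.1, 35.4 and 35.1 TPM at 3 days (log2 change 4.09 ± 0.14 SE, adjusted p = 4.86e-11). PRL2, the homologue of the complex member PRL1, stood at 2.59, 2.57 and 2.71 TPM in the control libraries and at 48.5, 54.3 and 49.97 TPM at 3 days (log2 change 3.84 ± 0.082 SE, adjusted p = 1.50e-12). The control and 3-day libraries did not overlap for either gene. BRR2A, the RNA helicase that unwinds spliceosomal RNAs, rose from 41.5 ± 1.21 to 172 ± 14.5 TPM (log2 change 2.02, adjusted p = 2.76e-11). MOS4, the protein that names the complex, rose from 62.5 ± 3.27 to 175 ± 8.64 TPM (log2 change 1.47, adjusted p = 6.95e-11). PRL1 was the 1 member that fell (61.2 ± 2.67 to 52.5 ± 1.21 TPM, log2 change -0.22, adjusted p = 0.00132). Under median-of-ratios scaling none of the list fell, and under quantile normalization 2 did. Among 20 SR splicing factors, 12 rose, 5 fell and 3 did not pass the test (median 0.45). SR45A, a stress-induced SR-like splicing factor, stood at 31.8, 30.4 and 32.6 TPM in the control libraries and at 287, 299.9 and 309 TPM at 3 days (log2 change 3.20 ± 0.061 SE, adjusted p = 6.93e-13). SR30, a splicing regulator induced by strong light and heat, rose from 58.6 ± 1.86 to 471 ± 9.31 TPM (log2 change 2.98, adjusted p = 1.02e-13). SCL30A and SR34A moved the other way: SCL30A fell from 50.5 ± 1.86 to 18.46 ± 0.93 TPM and SR34A from 78.3 ± 4.89 to 34.1 ± 0.88 TPM. In microRNA biogenesis 10 rose and 2 fell of 12 genes (median 1.34). CPL1, a phosphatase that acts on the microRNA-processing protein HYL1, rose from 9.97 ± 0.36 to 48.7 ± 1.33 TPM (log2 change 2.18, adjusted p = 1.11e-12). AGO1, the protein that microRNAs guide, fell from 64.0 ± 1.71 to 30.4 ± 0.72 TPM (log2 change -1.05, adjusted p = 1.25e-10). These lists were high in WT at 3 days as well. Median log2 changes before subtraction were 1.03 in WT and 1.37 in the mutant for MAC and spliceosome core genes. They were 1.00 and 0.32 for SR factors and 1.37 and 1.21 for microRNA biogenesis, against 0.39 and -0.13 over all genes.

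Heat shock genes were the group that had moved furthest. Of 18 small heat shock protein genes, whose products hold unfolding proteins in a refoldable state, 17 rose and 1 fell, and their median was 7.38 relative to all genes. They were high in WT at 3 days as well, with a median log2 change before subtraction of 6.71, against 7.25 in the mutant. HSP17.6C, a class I cytosolic small heat shock protein, stood at 0.16, 0.23 and 0.93 TPM in the control libraries and at 754, 933 and 821 TPM at 3 days (log2 change 9.22 ± 0.2 SE, adjusted p = 1.96e-12). HSP17.6B, another class I member, stood at 4.39, 3.24 and 4.94 TPM in the control libraries and at 1697, 1804 and 1654 TPM at 3 days (log2 change 8.38 ± 0.15 SE, adjusted p = 5.64e-13). HSP22, a small heat shock protein of the ER, stood at 0, 0.06 and 0 TPM in the control libraries and at 301, 435 and 371 TPM at 3 days (log2 change 8.49 ± 0.1 SE, adjusted p = 4.64e-14). Every 3-day library lay far above every control library for these genes, and the control libraries were near 0 for most of the list. The plastid member HSP21 stood at 0, 0 and 0.27 TPM at control and 334, 474 and 522 TPM at 3 days, and the mitochondrial HSP23.6 at 0.6, 0.8 and 0.81 and 294, 321 and 324 TPM. HSP17.4A, HSP17.7, HSP17.6II and HSP17.8 rose by log2 changes of 9.03, 8.99, 8.83 and 8.05. HSP15.4 was the only member to fall, from 32.5 ± 2.74 to 8.20 ± 0.78 TPM (log2 change -1.86). Small heat shock genes of 1 class resemble each other, so the division of reads among them by the authors' counting is uncertain.

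Most of the larger chaperones rose as well. Of 30 genes 26 rose, 3 fell and 1 did not pass the test (median 3.19). HSP90.1, the heat-inducible cytosolic HSP90, stood at 6.18, 5.57 and 6.25 TPM in the control libraries and at 1543, 1804 and 1782 TPM at 3 days (log2 change 7.93 ± 0.1 SE, adjusted p = 6.85e-14). HSP70, the heat-inducible cytosolic HSP70, stood at 23.3, 21.08 and 20.8 TPM in the control libraries and at 3028, 3347 and 3359.7 TPM at 3 days (log2 change 7.16 ± 0.068 SE, adjusted p = 1.55e-14). HSP101, the disaggregase needed for acquired thermotolerance, stood at 3.51, 3.66 and 3.65 TPM in the control libraries and at 236, 275 and 279.9 TPM at 3 days (log2 change 5.84 ± 0.083 SE, adjusted p = 1.08e-13). Outside ribosomal RNA, mitochondrial genes and the undescribed locus AT3G06365, HSP70 had the highest mean TPM of any gene at 3 days. The cytosolic HSP90.2, HSP90.3 and HSP90.4, near-identical copies, rose by log2 changes of 3.23, 2.26 and 2.199. Among the HSP90 genes of organelles, the ER member HSP90.7 rose from 152 ± 3.99 to 1550.2 ± 121 TPM, the mitochondrial HSP90.6 from 56.6 ± 2.87 to 162 ± 2.34 TPM, and the plastid HSP90.5 fell from 207 ± 14.6 to 123 ± 9.40 TPM. CPN60B, a subunit of the plastid chaperonin that folds Rubisco, stood at 387, 457 and 436 TPM in the control libraries and at 77.4, 86.1 and 86.4 TPM at 3 days (log2 change -2.34 ± 0.085 SE, adjusted p = 1.13e-10). The partner subunit CPN60A fell from 449.5 ± 32.6 to 237 ± 32.7 TPM, the plastid co-chaperonin CPN20 rose from 959 ± 69.9 to 1206 ± 74.0 TPM, and the plastid disaggregase CLPB3 did not pass the test (66.5 ± 2.11 to 71.4 ± 2.60 TPM). HSP90.5 and CPN60A also differed from WT, where HSP90.5 was called higher at 3 days, with a log2 change of 2.36 and a difference of -3.10 ± 0.11 (SE, adjusted p = 5.95e-10). For CPN60A the difference was -1.68 ± 0.12 (SE, adjusted p = 2.12e-07).

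Their regulators were high too. Of 18 heat shock transcription factors tested, 14 rose, 3 fell and 1 did not pass the test (median 1.57). HSFA2, the factor that extends the heat response, stood at 1.14, 0.59 and 0.71 TPM in the control libraries and at 80.3, 83.3 and 92.6 TPM at 3 days (log2 change 5.58 ± 0.13 SE, adjusted p = 3.53e-12). HSFA3, a factor acting downstream of DREB2A, stood at 0.56, 0.91 and 1.00 TPM in the control libraries and at 47.5, 45.2 and 44.5 TPM at 3 days (log2 change 4.69 ± 0.098 SE, adjusted p = 1.30e-12). The control and 3-day libraries were fully separated for both. HSFC1, HSFB4 and HSFA5 were the 3 that fell, HSFC1 from 7.02 ± 0.12 to 0.85 ± 0.098 TPM, HSFB4 from 9.89 ± 1.51 to 1.84 ± 0.27 TPM and HSFA5 from 9.94 ± 0.58 to 5.21 ± 0.54 TPM. All 7 other heat regulators rose. DREB2C, an AP2-type transcription factor of heat and drought responses, stood at 1.28, 1.44 and 1.94 TPM in the control libraries and at 144, 136 and 131 TPM at 3 days (log2 change 5.76 ± 0.12 SE, adjusted p = 1.60e-12). DREB2B, its relative, rose from 0.67 ± 0.18 to 62.4 ± 3.90 TPM (log2 change 5.25, adjusted p = 4.80e-13). MBF1C, a heat-induced transcriptional coactivator, rose from 10.1 ± 1.32 to 213 ± 8.76 TPM (log2 change 4.27, adjusted p = 2.77e-12).

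**Figure D2:**
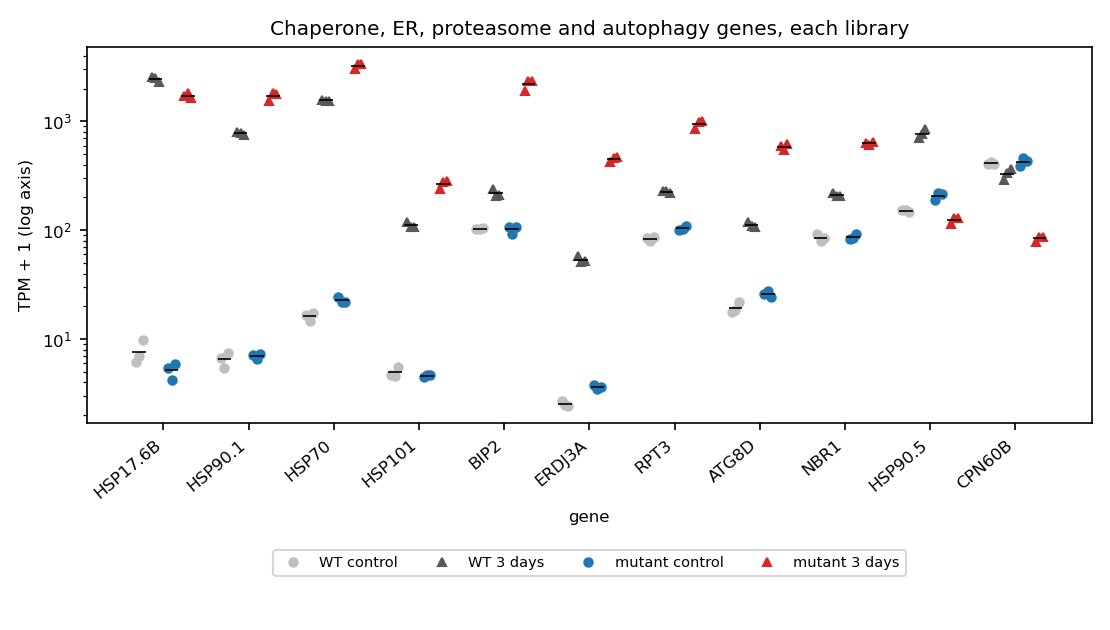
TPM + 1 on a log axis in each library for chaperone, ER, proteasome and autophagy genes (circles control, triangles 3 days, grey WT, blue and red mutant, bars the mean of TPM + 1). In the mutant, 3-day libraries lay above control libraries for all genes drawn but the plastid chaperones HSP90.5 and CPN60B, where they lay below.

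Genes of the ER unfolded protein response rose as a block. Of 21 tested, 20 rose, none fell and 1 did not pass the test, with a median of 2.98. BIP2, an HSP70 of the ER lumen, stood at 106, 91.1 and 107 TPM in the control libraries and at 1907, 2344 and 2333 TPM at 3 days (log2 change 4.42 ± 0.089 SE, adjusted p = 1.03e-12). ERDJ3A, a J-domain partner of BiP, stood at 2.78, 2.45 and 2.62 TPM in the control libraries and at 423, 464 and 468 TPM at 3 days (log2 change 6.97 ± 0.069 SE, adjusted p = 1.55e-14). CNX1, a lectin chaperone for glycoproteins, stood at 131, 127 and 139.6 TPM in the control libraries and at 1458, 1829.7 and 1748 TPM at 3 days (log2 change 3.65 ± 0.079 SE, adjusted p = 1.66e-12). For these genes the lowest 3-day library exceeded the highest control library many times over. BZIP28, a membrane-tethered transcription factor released by ER stress, rose from 17.2 ± 0.54 to 299 ± 7.65 TPM (log2 change 4.04, adjusted p = 2.74e-14). BZIP60, the factor whose mRNA is spliced by IRE1, rose from 40.4 ± 1.403 to 131 ± 9.86 TPM (log2 change 1.68, adjusted p = 8.73e-11). CRT3, a plant-specific calreticulin, was the member that did not pass (33.6 ± 1.17 to 35.05 ± 1.77 TPM). PDIL1-1, a protein disulphide isomerase, stood at 64.99, 62.1 and 65.8 TPM in the control libraries and at 463, 552 and 534 TPM at 3 days (log2 change 2.98 ± 0.062 SE, adjusted p = 1.23e-12). The response of the list was larger than in WT: the difference of the 2 genotypes' responses was called higher in 16 genes and lower in 3. Over all genes it was called in 76.9%, higher in 20.6% and lower in 56.3%. For BIP2 that difference was 3.34 ± 0.13 (SE, adjusted p = 1.06e-09), for PDIL1-1 2.97 ± 0.087 (SE, adjusted p = 2.48e-10) and for CNX1 2.50 ± 0.11 (SE, adjusted p = 3.32e-09), and each was called under the other scalings.

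Protein removal was the next group. All 31 proteasome subunit genes listed here rose, 22 of them at least 2-fold (median 1.54), although under quantile normalization 28 rose and 1 fell. The table's own proteasome pathway had 65 higher and 10 lower of 80 genes. RPT3, an ATPase of the regulatory particle, stood at 99.7, 102 and 107 TPM in the control libraries and at 854, 991 and 999 TPM at 3 days (log2 change 3.19 ± 0.061 SE, adjusted p = 7.06e-13). RPN6, a scaffold subunit of its lid, stood at 81.6, 79.8 and 85.2 TPM in the control libraries and at 382, 442 and 438 TPM at 3 days (log2 change 2.34 ± 0.057 SE, adjusted p = 4.23e-12). PBA1, a catalytic core subunit, stood at 146, 147 and 146 TPM in the control libraries and at 513, 546 and 563 TPM at 3 days (log2 change 1.88 ± 0.044 SE, adjusted p = 3.06e-12). These 3 genes showed no overlap between groups. RPT3 rose further in the mutant than in WT by 1.75 ± 0.086 (SE, adjusted p = 7.08e-09) on the log2 scale. Of 21 autophagy genes listed here 20 rose and 1 fell (median 1.54). The table's own autophagy pathway was less uniform, with 52 higher and 22 lower of 83 genes (median 0.79). ATG8D, a ubiquitin-like protein that coats autophagosomes, stood at 24.8, 26.8 and 23.3 TPM in the control libraries and at 592, 542 and 613 TPM at 3 days (log2 change 4.49 ± 0.086 SE, adjusted p = 7.20e-13). NBR1, the receptor that carries ubiquitinated aggregates into autophagosomes, stood at 82.9, 84.0 and 91.7 TPM in the control libraries and at 635, 604 and 644 TPM at 3 days (log2 change 2.85 ± 0.061 SE, adjusted p = 1.54e-12). ATG8F was the exception and fell from 102 ± 2.40 to 83.6 ± 9.72 TPM, a fall that did not pass under median-of-ratios scaling. Responses of autophagy genes were called larger than in WT in 17 of 21 and smaller in 1, against 20.6% and 56.3% of all genes. For ATG8D the difference was 1.96 ± 0.12 (SE, adjusted p = 4.58e-08).

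Photosynthesis genes had moved the opposite way. Of 47 photosystem and antenna genes none rose, 46 fell and 1 did not pass the test, and the median was -3.32. The list was low in WT at 3 days as well, with a median log2 change before subtraction of -2.51, against -3.45 in the mutant. LHCB2.3, a light-harvesting chlorophyll protein of photosystem II, stood at 1665, 1598 and 1502 TPM in the control libraries and at 0.14, 0.25 and 0.27 TPM at 3 days (log2 change -10.35 ± 0.091 SE, adjusted p = 1.17e-14). LHCB1.1, another antenna protein of photosystem II, stood at 6094, 5950.3 and 5841 TPM in the control libraries and at 11.7, 16.2 and 16.9 TPM at 3 days (log2 change -8.56 ± 0.14 SE, adjusted p = 2.38e-13). LHCA4, an antenna protein of photosystem I, stood at 7749.6, 7494 and 7289.8 TPM in the control libraries and at 74.6, 74.5 and 76.3 TPM at 3 days (log2 change -6.62 ± 0.077 SE, adjusted p = 3.18e-14). LHCB2.1 and LHCB2.2 fell by log2 changes of -7.03 and -7.20. These antenna genes were abundant in every control library, and no 3-day library came near them. LHCB genes are near-identical copies, so values of single members are uncertain. Whether fewer green cells or less of these RNAs per cell underlie such values cannot be told apart in whole seedlings.

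The fall was uneven within the apparatus. The 14 antenna genes of photosystem II had a median of -5.62, the 6 of photosystem I -3.23, the 12 subunits of photosystem I -3.65 and the 10 subunits of photosystem II -2.62. PSBR, a small subunit of photosystem II, stood at 6363, 6164 and 6048 TPM in the control libraries and at 2688, 2740.2 and 2916 TPM at 3 days (log2 change -1.16 ± 0.083 SE, adjusted p = 6.02e-08). Its fall did not pass under quantile normalization (log2 change -0.04), and PSBR was among the 10 genes with the highest mean TPM at 3 days. PETE2, the main plastocyanin, stood at 2643, 2586 and 2504 TPM in the control libraries and at 978, 1056 and 1129 TPM at 3 days (log2 change -1.29 ± 0.07 SE, adjusted p = 4.31e-09). LHCB4.3, a minor antenna isoform, was the gene that did not pass (19.6 ± 1.46 to 19.5 ± 4.13 TPM). In the Rubisco and Calvin cycle list 1 rose and 18 fell of 19 (median -2.70). RBCS1A, the main small subunit of Rubisco, stood at 16934, 16580.1 and 16439 TPM in the control libraries and at 1594, 2242 and 2299 TPM at 3 days (log2 change -3.04 ± 0.13 SE, adjusted p = 4.41e-10). SBPASE, a bisphosphatase of the cycle, stood at 766, 749 and 764 TPM in the control libraries and at 26.2, 34.4 and 37.4 TPM at 3 days (log2 change -4.51 ± 0.13 SE, adjusted p = 1.41e-11). CP12-3, a small regulatory protein of the cycle, rose from 13.7 ± 1.94 to 27.9 ± 2.13 TPM (log2 change 0.99, adjusted p = 4.94e-06). It was the only member of that list to rise.

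Chlorophyll synthesis genes fell with them. Of 23 genes 1 rose and 22 fell (median -2.82). GUN4, an activator of magnesium chelatase, stood at 234, 245 and 254 TPM in the control libraries and at 0.7, 0.55 and 0.35 TPM at 3 days (log2 change -7.33 ± 0.082 SE, adjusted p = 2.74e-14). CHLG, chlorophyll synthase, stood at 121, 127 and 116 TPM in the control libraries and at 2.35, 2.71 and 2.78 TPM at 3 days (log2 change -5.08 ± 0.066 SE, adjusted p = 6.33e-14). HEMA2, the less abundant glutamyl-tRNA reductase gene, was the member that rose (13.9 ± 0.31 to 41.9 ± 4.11 TPM). For GUN4 the difference from the WT response was -5.37 ± 0.12 (SE, adjusted p = 5.35e-11). Breakdown genes went the other way. In the chlorophyll breakdown and senescence list 14 rose, 4 fell and 2 did not pass the test of 20 (median 1.14). PPH, the pheophytinase of chlorophyll breakdown, stood at 25.1, 25.9 and 27.2 TPM in the control libraries and at 168, 185 and 183 TPM at 3 days (log2 change 2.73 ± 0.055 SE, adjusted p = 1.03e-12). PAO, the oxygenase that opens the chlorophyll ring, stood at 28.4, 27.5 and 29.4 TPM in the control libraries and at 115, 123 and 122 TPM at 3 days (log2 change 2.04 ± 0.091 SE, adjusted p = 7.24e-10). NAC087, a NAC factor of senescence and programmed cell death, stood at 13.2, 11.6 and 13.3 TPM in the control libraries and at 185, 198 and 182 TPM at 3 days (log2 change 3.79 ± 0.11 SE, adjusted p = 2.07e-11). No library of the 2 groups overlapped for PPH, PAO or NAC087. WRKY53, an early senescence regulator, fell from 3.79 ± 0.34 to 0.13 ± 0.14 TPM and NOL, a chlorophyll b reductase, from 12.3 ± 1.07 to 1.72 ± 0.56 TPM.

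**Figure D3:**
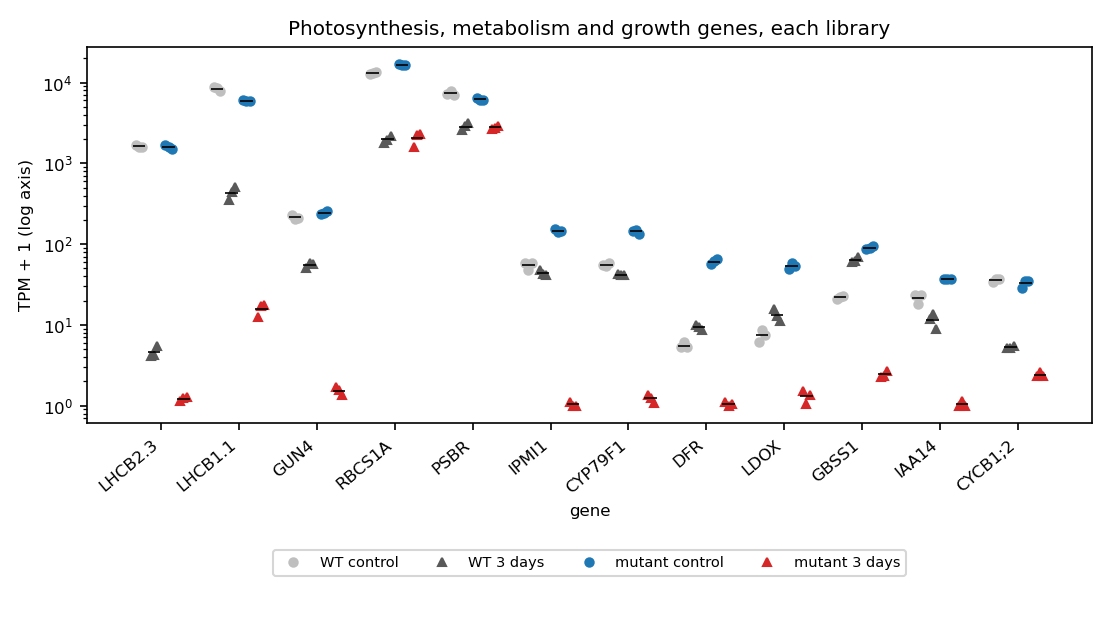
TPM + 1 on a log axis in each library for genes of photosynthesis, secondary metabolism, starch and growth (symbols as in the plot of chaperone genes). The 3-day mutant libraries (red) lay below the mutant control libraries (blue) for every gene drawn, and PSBR and RBCS1A stayed the most abundant of them.

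Genes encoded in the plastid gave a smaller shift. Of 56 tested, 2 rose, 29 fell and 25 did not pass the test, and the median was -0.75. The libraries were made from polyadenylated RNA, which captures organelle transcripts poorly, and the plastid genes summed to 2056 to 2828 TPM in the control libraries and 1510.3 to 2485 TPM at 3 days.

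Carbon stores and their use were divided. In the starch list 5 rose, 22 fell and 2 did not pass the test of 29 (median -1.48). GBSS1, the starch synthase that makes amylose, stood at 86.6, 88.9 and 94.2 TPM in the control libraries and at 1.3, 1.32 and 1.72 TPM at 3 days (log2 change -5.22 ± 0.078 SE, adjusted p = 1.49e-13). APL1, a large subunit of ADP-glucose pyrophosphorylase, stood at 152, 149.6 and 145 TPM in the control libraries and at 4.69, 4.54 and 3.78 TPM at 3 days (log2 change -4.82 ± 0.092 SE, adjusted p = 7.06e-13). AMY1, an alpha-amylase, stood at 0.15, 0.32 and 0.33 TPM in the control libraries and at 19.9, 21.6 and 18.8 TPM at 3 days (log2 change 4.06 ± 0.3 SE, adjusted p = 8.47e-08). GBSS1 and APL1 were lower in every 3-day library, and AMY1 was higher in each. BAM1, a stress-induced beta-amylase, rose from 43.5 ± 1.88 to 225 ± 8.73 TPM (log2 change 2.35, adjusted p = 4.44e-12). Carbon starvation genes showed no common direction: 8 rose, 5 fell and 7 did not pass the test of 20. DIN2, a dark-inducible beta-glucosidase, stood at 0.77, 0.29 and 0.22 TPM in the control libraries and at 16.7, 11.8 and 12.2 TPM at 3 days (log2 change 3.35 ± 0.17 SE, adjusted p = 2.04e-09). TPS9, a class II trehalose phosphate synthase protein, rose from 5.06 ± 1.22 to 40.7 ± 4.35 TPM (log2 change 2.80, adjusted p = 2.37e-09). ASN1, the dark-inducible asparagine synthetase, fell from 3.80 ± 0.7 to 0.63 ± 0.14 TPM and DIN4 from 17.68 ± 1.78 to 3.36 ± 0.56 TPM. Among 23 transport genes 3 rose, 18 fell and 2 did not pass the test (median -2.16). STP13, a hexose importer, stood at 7.92, 5.61 and 7.96 TPM in the control libraries and at 96.4, 115 and 115 TPM at 3 days (log2 change 3.76 ± 0.17 SE, adjusted p = 1.03e-09). SWEET12, a sucrose exporter of the phloem, stood at 38.1, 31.4 and 34.6 TPM in the control libraries and at 1.90, 0.76 and 0.56 TPM at 3 days (log2 change -4.16 ± 0.18 SE, adjusted p = 5.93e-10). TIP2;2, an aquaporin of the vacuolar membrane, fell from 75.2 ± 10.4 to 3.47 ± 0.96 TPM (log2 change -4.11, adjusted p = 1.88e-10). The response of STP13 exceeded that of WT by 4.16 ± 0.25 (SE, adjusted p = 3.10e-08), more than its rise in the mutant, so it did not rise in WT.

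Among the 40 lists of the plots, glucosinolate genes had the lowest median and also the median difference from WT that lay farthest from that of all genes. Of 30 glucosinolate genes, which make the sulphur-containing defence compounds of the cabbage family, 2 rose, 25 fell and 3 did not pass the test, at a median of -3.69. IPMI1, a subunit of isopropylmalate isomerase in methionine chain elongation, stood at 154, 141 and 144 TPM in the control libraries and at 0.11, 0 and 0 TPM at 3 days (log2 change -7.15 ± 0.084 SE, adjusted p = 3.34e-14). CYP79F1, the enzyme that makes aldoximes from elongated methionine, stood at 146, 151 and 134 TPM in the control libraries and at 0.35, 0.26 and 0.08 TPM at 3 days (log2 change -6.88 ± 0.08 SE, adjusted p = 3.18e-14). GSTU20, a glutathione transferase of the same pathway, stood at 686, 685 and 634 TPM in the control libraries and at 0.72, 0.4 and 0.62 TPM at 3 days (log2 change -8.73 ± 0.07 SE, adjusted p = 1.17e-14). The 3-day libraries were at or below 1 TPM for all 3 genes. MYB29, a factor that activates the methionine-derived branch, fell from 27.5 ± 2.12 to 0.097 ± 0.087 TPM. MYB51, which activates the tryptophan-derived branch, rose from 5.22 ± 0.66 to 8.94 ± 0.74 TPM, and MYB122 rose from 0.4 ± 0.091 to 1.64 ± 0.52 TPM. The difference from the WT response was -6.46 ± 0.11 (SE, adjusted p = 2.28e-11) for CYP79F1 and -6.83 ± 0.12 (SE, adjusted p = 2.28e-11) for IPMI1. Over the list it was called lower in 27 genes and higher in 2, against 56.3% and 20.6% of all genes.

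All 23 tested genes of the anthocyanin and flavonoid list fell, 19 of them at least 2-fold (median -2.74). Under quantile normalization 21 passed as lower. The deposited pathway column was less uniform. Its anthocyanin pathway had 4 higher and 9 lower of 14 genes (median -0.82), and its mean sum went from 92.7 to 163 TPM. The flavone and flavonol pathway had 16 higher and 14 lower of 33 (median 0.24), and the flavonoid pathway 20 higher and 62 lower of 93 (median -0.85). DFR, dihydroflavonol reductase of anthocyanin synthesis, stood at 55.0, 60.2 and 64.7 TPM in the control libraries and at 0.1, 0 and 0.05 TPM at 3 days (log2 change -5.86 ± 0.091 SE, adjusted p = 1.94e-13). LDOX, the next enzyme, anthocyanidin synthase, stood at 47.9, 58.2 and 52.3 TPM in the control libraries and at 0.51, 0.06 and 0.36 TPM at 3 days (log2 change -5.37 ± 0.17 SE, adjusted p = 3.06e-11). Both genes were close to 0 in every 3-day library. TT4, chalcone synthase, the entry enzyme, fell from 166 ± 11.99 to 103 ± 12.1 TPM (log2 change -0.69, adjusted p = 1.74e-05). In WT the same 2 late genes were called higher at 3 days, DFR at a log2 change of 0.75 and LDOX at 0.83. Of 15 lignin genes 3 rose, 11 fell and 1 did not pass the test (median -1.61). 4CL1, the CoA ligase of monolignol synthesis, stood at 94.4, 88.1 and 95.9 TPM in the control libraries and at 3.48, 2.02 and 1.84 TPM at 3 days (log2 change -4.80 ± 0.14 SE, adjusted p = 1.73e-11). CAD5, a cinnamyl alcohol dehydrogenase, stood at 42.2, 36.3 and 41.7 TPM in the control libraries and at 368, 402 and 383 TPM at 3 days (log2 change 3.23 ± 0.1 SE, adjusted p = 3.16e-11). CAD9, annotated as another dehydrogenase of that family, fell from 463 ± 10.8 to 20.8 ± 3.29 TPM.

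Growth genes were low. In the auxin and growth list 6 rose, 21 fell and 3 did not pass the test of 30 (median -1.66). IAA14, an Aux/IAA repressor of auxin signalling, stood at 36.4, 36.4 and 36.2 TPM in the control libraries and at 0, 0.15 and 0 TPM at 3 days (log2 change -5.16 ± 0.15 SE, adjusted p = 1.36e-11). SAUR20, a small auxin-induced growth protein, stood at 21.6, 20.5 and 19.3 TPM in the control libraries and was listed at 0 in all 3 libraries at 3 days (adjusted p = 1.59e-09). PIF4, the transcription factor of warm-temperature growth, fell from 68.1 ± 3.55 to 5.18 ± 0.062 TPM (log2 change -3.48, adjusted p = 2.72e-13). YUC8, an auxin synthesis gene, rose from 3.73 ± 0.23 to 11.2 ± 1.01 TPM, and GH3.3, which conjugates auxin, from 10.9 ± 0.63 to 23.1 ± 6.60 TPM. Of 19 cytokinin genes 4 rose, 14 fell and 1 did not pass the test (median -1.48). LOG1, a cytokinin-activating enzyme, fell from 33.5 ± 4.54 to 1.82 ± 0.87 TPM (log2 change -3.65, adjusted p = 3.48e-09). ARR6, a type-A response regulator induced by cytokinin, fell from 11.2 ± 0.7 to 1.06 ± 0.04 TPM (log2 change -2.56, adjusted p = 5.48e-11). Of 24 cell wall genes 6 rose, 17 fell and 1 did not pass the test (median -1.72). EXPA8, an expansin that loosens walls, stood at 144, 158 and 134 TPM in the control libraries and at 0.18, 0 and 0.06 TPM at 3 days (log2 change -7.08 ± 0.075 SE, adjusted p = 2.07e-14). XTH23, a xyloglucan endotransglucosylase, stood at 2.61, 2.17 and 2.58 TPM in the control libraries and at 162, 186 and 164 TPM at 3 days (log2 change 5.64 ± 0.13 SE, adjusted p = 3.07e-12). XTH24, another enzyme of that family, rose from 45.9 ± 10.3 to 796 ± 35.4 TPM (log2 change 4.11, adjusted p = 2.99e-10). The expansin and the xyloglucan enzymes moved in opposite directions.

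Mitotic genes fell too. Of 33 cell cycle genes 4 rose, 26 fell and 3 did not pass the test (median -1.82). CYCA1;1, an A-type cyclin, stood at 19.9, 24.9 and 22.3 TPM in the control libraries and at 0.4, 0.19 and 0.19 TPM at 3 days (log2 change -4.21 ± 0.099 SE, adjusted p = 3.13e-12). KRP2, an inhibitor of cyclin-dependent kinases, stood at 36.0, 36.7 and 39.6 TPM in the control libraries and at 1.16, 0.58 and 1.25 TPM at 3 days (log2 change -4.28 ± 0.12 SE, adjusted p = 1.64e-11). SMR5, a kinase inhibitor induced by oxidative stress and DNA damage, stood at 0.98, 0 and 0 TPM in the control libraries and at 25.5, 48.8 and 49.8 TPM at 3 days (log2 change 5.02 ± 0.44 SE, adjusted p = 4.46e-07). The 2 inhibitors moved in opposite directions. DNA replication genes gave no clear shift (4 rose, 12 fell and 8 did not pass the test of 24, median -0.15). Their responses were called lower than in WT in 22 genes and higher in none, and in 19 and 2 under median-of-ratios scaling. Over all genes 56.3% were called lower as deposited, and 8491 of 22462 were under median-of-ratios scaling. TSO2, a ribonucleotide reductase subunit, stood at 89.1, 92.1 and 94.4 TPM in the control libraries and at 2.37, 3.46 and 3.96 TPM at 3 days (log2 change -4.46 ± 0.12 SE, adjusted p = 6.56e-12). MCM5, a subunit of the replicative helicase, rose from 21.13 ± 1.00 to 174 ± 1.16 TPM (log2 change 2.99, adjusted p = 1.11e-11). Of 18 DNA damage genes 5 rose, 10 fell and 3 did not pass the test, a split that turned to 11 higher and 4 lower under quantile normalization. XRI1, a gene induced by X-rays, fell from 15.9 ± 1.47 to 4.94 ± 0.25 TPM (log2 change -1.50, adjusted p = 1.48e-09). KU80, a subunit of the DNA end-joining complex, fell from 10.4 ± 1.14 to 2.72 ± 0.14 TPM (log2 change -1.61, adjusted p = 1.63e-09).

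Iron genes were almost uniformly low. Of 19 tested, 1 rose, 15 fell and 3 did not pass the test (median -2.67). IRT1, the iron importer of the root epidermis, stood at 144, 69.5 and 128 TPM in the control libraries and at 0.88, 0.31 and 0.65 TPM at 3 days (log2 change -6.10 ± 0.24 SE, adjusted p = 2.04e-10). IMA3, a small peptide that triggers iron uptake, stood at 38.7, 17.2 and 30.3 TPM in the control libraries and at 0.11, 0.52 and 0.25 TPM at 3 days (log2 change -4.46 ± 0.28 SE, adjusted p = 1.77e-08). FER3, a ferritin, was the gene that rose (67.1 ± 14.3 to 123 ± 2.88 TPM). The markers of root cells fell alongside, as given below.

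Defence and stress hormones were mixed. In the salicylic acid list 12 rose, 2 fell and 4 did not pass the test of 18 (median 0.89). SARD1, a transcription factor that promotes salicylic acid synthesis, stood at 0.71, 0.49 and 0.75 TPM in the control libraries and at 40.5, 35.3 and 33.1 TPM at 3 days (log2 change 4.50 ± 0.13 SE, adjusted p = 2.06e-11). PR1, a secreted defence protein, was listed at 0 in all 3 control libraries and at 34.4, 10.2 and 13.7 TPM at 3 days (adjusted p = 1.05e-07). PR5 fell from 5.81 ± 0.68 to 0.3 ± 0.14 TPM, and the immune receptor NPR4 from 10.02 ± 0.6 to 4.12 ± 0.85 TPM. In pattern-triggered immunity 5 rose, 8 fell and 2 did not pass the test of 15 (median -0.35). WRKY33, a regulator of camalexin synthesis, rose from 18.3 ± 3.51 to 66.3 ± 8.88 TPM (log2 change 1.81, adjusted p = 1.18e-07). WRKY22, an immune WRKY factor, fell from 9.33 ± 1.33 to 0.61 ± 0.1 TPM (log2 change -2.68, adjusted p = 7.56e-08). Of 23 jasmonate genes 8 rose, 9 fell and 6 did not pass the test. JAZ1, a repressor of jasmonate signalling, stood at 12.1, 7.32 and 9.21 TPM in the control libraries and at 112, 130.3 and 116 TPM at 3 days (log2 change 3.54 ± 0.21 SE, adjusted p = 1.27e-08). AOS, an early enzyme of jasmonate synthesis, stood at 82.6, 67.4 and 70.2 TPM in the control libraries and at 5.68, 5.72 and 4.96 TPM at 3 days (log2 change -3.52 ± 0.083 SE, adjusted p = 3.11e-12). These showed the repressor up and the enzyme down, with no overlap of libraries.

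Ethylene genes rose in most cases. Of 21 tested, 16 rose, 4 fell and 1 did not pass the test (median 0.97). ETR2, an ethylene receptor, rose from 5.55 ± 1.05 to 36.9 ± 1.84 TPM (log2 change 2.54, adjusted p = 1.61e-08). EIN3, a transcription factor of the ethylene response, rose from 57.9 ± 0.31 to 177 ± 11.1 TPM (log2 change 1.59, adjusted p = 2.74e-11). Of 32 abscisic acid and dehydration genes 19 rose, 9 fell and 4 did not pass the test (median 0.81). RD29A, a dehydration- and cold-induced protein, stood at 14.8, 16.6 and 17.0 TPM in the control libraries and at 155, 159 and 163 TPM at 3 days (log2 change 3.22 ± 0.08 SE, adjusted p = 4.71e-12). HAI1, a phosphatase induced by abscisic acid, rose from 2.46 ± 0.64 to 34.8 ± 3.69 TPM (log2 change 3.38, adjusted p = 6.17e-10). ABA1, the epoxidase at the start of abscisic acid synthesis, stood at 260.0, 256 and 252 TPM in the control libraries and at 8.94, 8.37 and 8.01 TPM at 3 days (log2 change -4.77 ± 0.065 SE, adjusted p = 7.89e-14). The response of RD29A exceeded that of WT by 3.15 ± 0.11 (SE, adjusted p = 7.30e-10). Oxidative stress genes had no common direction, and 13 rose, 14 fell and 1 did not pass the test of 28. APX2, the heat-inducible cytosolic ascorbate peroxidase, stood at 0.07, 0 and 0.07 TPM in the control libraries and at 47.2, 49.1 and 52.6 TPM at 3 days (log2 change 5.60 ± 0.061 SE, adjusted p = 2.37e-14). ZAT12, a zinc finger factor of oxidative stress, rose from 5.93 ± 0.11 to 121 ± 6.32 TPM (log2 change 4.13, adjusted p = 2.45e-11). The plastid superoxide dismutases FSD2 and FSD3 fell, FSD2 from 45.8 ± 7.85 to 5.98 ± 0.42 TPM and FSD3 from 67.8 ± 5.90 to 9.51 ± 0.82 TPM.

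Clock genes were evenly divided. Of 22 tested, 10 rose, 10 fell and 2 did not pass the test. The evening genes ELF4 and LUX rose, ELF4 from 12.8 ± 2.33 to 176 ± 13.0 TPM and LUX from 5.75 ± 1.31 to 67.4 ± 3.75 TPM. The morning gene CCA1 fell from 58.3 ± 0.84 to 10.51 ± 1.26 TPM, LHY from 34.5 ± 1.13 to 8.26 ± 0.86 TPM, and the activators LNK2 and RVE8 fell from 117 ± 2.02 to 7.33 ± 0.66 TPM and 23.8 ± 1.103 to 1.43 ± 0.73 TPM. The labels give no time of day for either group, so clock phase and treatment cannot be told apart.

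Markers of cell types fell across organs. All 6 shoot and leaf markers (LHCB1.1, LHCB1.2, RBCS1A, GLK1, GLK2 and CA1) fell. Their sum was 30554 to 31444 TPM in the control libraries and 1847 to 2669 TPM at 3 days. LHCB1.1, LHCB1.2 and RBCS1A are also members of the photosynthesis lists above, so this fall in part repeats theirs. All 7 vascular markers fell, summing to 194 to 223 TPM in the control libraries and 23.7 to 27.9 TPM at 3 days. Of 8 guard cell lineage markers 2 rose and 6 fell, and they summed to 69.4 to 83.1 TPM in the control libraries and 34.5 to 37.7 TPM at 3 days. Of the 8 root markers the 7 tested all fell, summing to 35.4 to 49.5 TPM in the control libraries and 11.1 to 11.4 TPM at 3 days, and WER and EXPA7 were listed at 0 in every 3-day library. XCP2, a protease of differentiating xylem, fell from 88.2 ± 8.62 to 7.85 ± 0.31 TPM (log2 change -3.33, adjusted p = 6.13e-11). FAMA, the factor that completes guard cell fate, rose from 9.59 ± 0.72 to 13.1 ± 0.23 TPM (log2 change 0.42, adjusted p = 3.48e-04). Of 7 seed markers 4 were tested and 3 rose, none fell and 1 did not pass the test, at sums of 0.94 to 4.00 TPM in the control libraries and 7.04 to 8.57 TPM at 3 days. The tested seed markers summed to only 0.23 to 0.55 TPM in the WT control libraries, so those libraries could not bring them through the filter. They had little room to fall, and the filter largely set this split. Leaf, root and vascular markers were detected in both groups, as the label seedling implies. The part of cell-type loss in the results above was not tested.

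In the pathway column of the table, 124 pathways had at least 10 tested genes. The 10 highest and 10 lowest medians are given after leaving out pathways of animals, bacteria and viruses and any pathway that shares most of its genes with one already taken, such as tyrosine metabolism (-1.20). The proteasome pathway had the highest median (1.34, 48 higher and 2 lower by at least 2-fold of 80). The spliceosome pathway followed at 1.06 (162 higher and 29 lower by at least 2-fold of 338), and protein processing in the ER at 0.96 (158 higher and 43 lower by at least 2-fold of 339). Before the median of all genes was subtracted, the spliceosome pathway stood at 0.93 in the mutant and 0.96 in WT. Its differences from WT were called higher in 126 genes and lower in 138, or 218 and 61 under median-of-ratios scaling. Linoleic acid metabolism, protein export, nucleocytoplasmic transport, SNARE interactions, autophagy, ubiquitin-mediated proteolysis and mRNA surveillance made up the rest of the 10 highest, with medians from 0.92 down to 0.66. The table places HSP70 in the spliceosome pathway and HSP17.6C in ER processing. EMB2770, annotated as a pre-mRNA splicing factor and counted in the tri-snRNP complex, stood at 23.1, 22.2 and 24.6 TPM in the control libraries and at 404, 449 and 498 TPM at 3 days (log2 change 4.21 ± 0.071 SE, adjusted p = 3.13e-13). CUL2, a cullin of ubiquitin ligases, stood at 0.14, 0.11 and 0.18 TPM in the control libraries and at 41.1, 49.5 and 48.8 TPM at 3 days (log2 change 5.37 ± 0.093 SE, adjusted p = 3.72e-13). RAE1, an mRNA export factor of the nuclear pore, stood at 28.7, 31.5 and 27.9 TPM in the control libraries and at 318, 329 and 325 TPM at 3 days (log2 change 3.42 ± 0.066 SE, adjusted p = 7.51e-13). PLA2-BETA, a phospholipase of linoleic acid metabolism, stood at 4.78, 6.60 and 6.54 TPM in the control libraries and at 27.0, 19.8 and 20.6 TPM at 3 days (log2 change 1.75 ± 0.13 SE, adjusted p = 1.05e-07). No library of the 2 groups overlapped for these 4 genes.

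Antenna proteins had the lowest pathway median (-4.75, 2 higher and 22 lower by at least 2-fold of 26). The next were photosynthesis (-1.59), carotenoid (-1.42), brassinosteroid (-1.40) and isoquinoline alkaloid synthesis (-1.39). Lysine synthesis (-1.23), carbon fixation (-1.22), porphyrin metabolism (-1.21), glucosinolate synthesis (-1.18) and other glycan degradation (-1.12) completed the 10 lowest of those kept. In lysine synthesis none of 16 genes rose and 14 fell. AK3, an aspartate kinase at the head of that pathway, stood at 34.3, 30.5 and 29.9 TPM in the control libraries and at 1.09, 0.68 and 0.87 TPM at 3 days (log2 change -4.12 ± 0.09 SE, adjusted p = 1.88e-12). NCED4, a carotenoid cleavage dioxygenase, stood at 79.6, 74.1 and 78.3 TPM in the control libraries and at 0.6, 0.67 and 0.78 TPM at 3 days (log2 change -5.54 ± 0.1 SE, adjusted p = 5.75e-13). CYP72A11, a cytochrome P450 of the brassinosteroid entry, fell from 69.4 ± 2.19 to 5.32 ± 1.78 TPM (log2 change -3.52, adjusted p = 1.20e-09). BGAL8, a beta-galactosidase, fell from 52.1 ± 0.62 to 3.45 ± 0.18 TPM (log2 change -3.58, adjusted p = 1.84e-13).

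**Figure D4:**
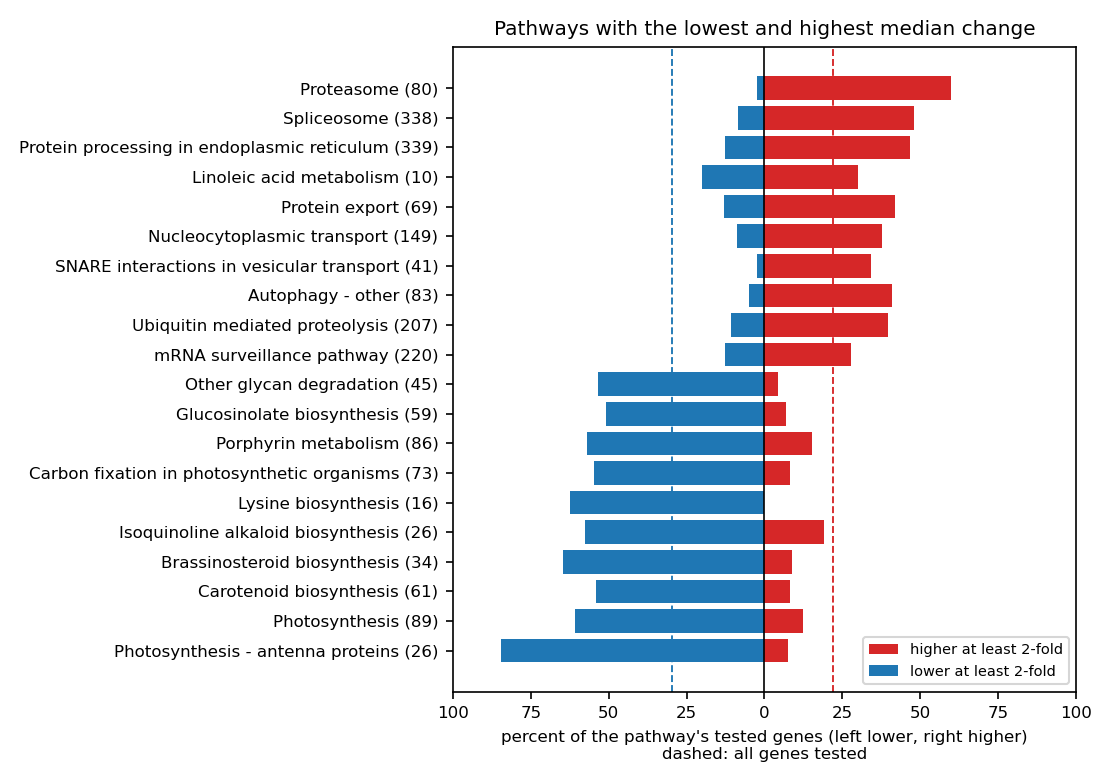
Percent of each pathway's tested genes that were at least 2-fold higher (red, right) or lower (blue, left) in mutant 3 days against mutant control, for the 10 highest and 10 lowest medians among the pathways kept. Dashed lines mark all genes tested, 22.1% higher and 29.8% lower.

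The GO descriptions gave finer groups, 826 terms with 20 to 300 tested genes, from which overlapping terms were left out in the same way. Misfolded protein binding had the highest median (2.77, 16 higher and 0 lower by at least 2-fold of 20), then response to stress (1.89) and the ER unfolded protein response (1.72). The U4/U6 x U5 tri-snRNP complex stood at 1.67, with 27 of 31 genes higher, and the RNA polymerase II core at 1.401. UTR1, a nucleotide sugar transporter of the ER, rose from 11.4 ± 0.27 to 305 ± 16.1 TPM (log2 change 4.62, adjusted p = 2.74e-14). AATP1, annotated as an AAA-type ATPase, rose from 0.75 ± 0.12 to 144 ± 29.7 TPM (log2 change 6.36, adjusted p = 1.18e-12). NRPB9A, a subunit of RNA polymerase II, rose from 6.33 ± 0.45 to 29.9 ± 0.75 TPM (log2 change 2.08, adjusted p = 1.49e-06). Light harvesting had the lowest median (-4.92, 23 of 25 lower). Glucosinolate catabolism (-2.53) and mitotic phase transition (-2.13) stood among the 10 lowest beside 8 terms, 7 of them on photosynthesis or chlorophyll and 1 on protein domain binding. PYK10, the beta-glucosidase of ER bodies, stood at 1611, 1624 and 1762 TPM in the control libraries and at 36.4, 48.0 and 31.7 TPM at 3 days (log2 change -5.41 ± 0.15 SE, adjusted p = 1.19e-11). NSP1, a nitrile specifier protein that acts on glucosinolate breakdown products, stood at 258, 274 and 262 TPM in the control libraries and at 2.72, 5.56 and 3.07 TPM at 3 days (log2 change -5.84 ± 0.17 SE, adjusted p = 1.66e-11). Both were abundant in every control library and low in every 3-day library.

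All 22 mitochondria-encoded genes tested rose, with a median of 6.45. Of the class, 6 to 11 genes reached 1 TPM in the mutant control libraries and 22 to 23 in the mutant at 3 days. Many genes tested thus passed the filter only through 3-day libraries and had little room to fall, so the filter in part set this count. AT2G07671, annotated as an ATP synthase subunit C protein, rose from 2.06 ± 0.67 to 2282 ± 147 TPM (log2 change 9.56, adjusted p = 2.77e-12) and was chosen after its values were seen. It is a locus of chromosome 2, whose centromeric region carries a large copy of the mitochondrial genome, so its reads and those of the organelle cannot be told apart. Of 94 tested loci with IDs that begin AT2G07, 70 rose, 11 fell and 13 did not pass the test. How many of these loci passed the filter only through 3-day libraries was not counted. The median log2 change of mitochondria-encoded genes was 6.32 in the mutant and 6.73 in WT, and the difference was called higher in 2 genes and lower in 12, or 4 and 1 under median-of-ratios scaling. As for plastid genes, libraries from polyadenylated RNA capture these transcripts poorly, and the part of capture in their rise was not tested. The ribosomal RNA loci AT2G01020 and AT3G41979, with identical values, stood at 625, 446 and 439 TPM at control and 16253, 16004 and 14231 TPM at 3 days each, whereas AT3G41768 did not pass the test (log2 change 0.15 ± 0.23 SE, adjusted p = 0.559). AT3G06365, for which the table gives no description, stood at 1325, 1631 and 2170.4 TPM at control and 29105, 22335 and 26536 TPM at 3 days, the highest mean of any locus at 3 days.

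Transposable element genes as a class summed to 395 to 398 TPM at control and to 3954 to 4345 TPM at 3 days. Of 431 tested, 240 rose, 23 fell and 168 did not pass the test. Genes annotated as copia-like numbered 69, and of these 42 rose, 10 fell and 17 did not pass the test. Of 100 gypsy-like genes, which summed to 7.43 to 8.45 TPM in the control libraries, 63 rose, none fell and 37 did not pass the test. Of the whole class, 58 to 62 genes reached 1 TPM in the mutant control libraries, 189 to 195 in the mutant at 3 days and 423 to 442 in WT at 3 days. Most genes tested thus passed the filter only through 3-day libraries and had little room to fall, so the filter largely set this split of counts. AT1G48710, a copia-like gene, was listed at 0 in all 3 control libraries and at 190.4, 284 and 251 TPM at 3 days. Copia elements of 1 family, ONSEN, are known to be transcribed after heat in Arabidopsis, and the table does not name families. The copies are near identical, so the values of single loci are uncertain. In WT the sum at 3 days was 6709 to 7538 TPM, above every mutant library.

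Of 37825 rows, 301 were listed at 0 in all control libraries and at 1 TPM or more in all 3-day libraries. Of these, 61 were transposable element genes, a class of 3841 rows, and 19 had AT2G07 IDs, with 3 in both sets. The reverse pattern, 1 TPM or more in all control libraries and 0 in all 3-day libraries, was met by 223 loci. None of them was a transposable element gene, but only 58 to 62 of that class reached 1 TPM in a mutant control library, so few could show it. DAF1, an F-box protein gene, was at 97.9, 57.0 and 72.1 TPM at 3 days and listed at 0 in the control libraries. SAUR63, a small auxin-induced protein gene, was at 39.8, 37.3 and 34.99 TPM in the control libraries and listed at 0 at 3 days. AT2G08665, for which the table gives no description, was at 7619, 6992 and 4514 TPM in the control libraries and listed at 0 at 3 days. These 3 loci were chosen after their values were seen.

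Several abundant or strongly changed genes have not been named so far. Of these, RAN-1 belongs to the nucleocytoplasmic transport pathway above, so its rise is part of that result. RAN-1, a small GTPase of nuclear transport, stood at 234, 243 and 237 TPM in the control libraries and at 2463, 2708 and 2700.2 TPM at 3 days (log2 change 3.46 ± 0.049 SE, adjusted p = 1.03e-13). TCTP, a translationally controlled tumour protein homologue, stood at 1227, 1268 and 1259 TPM in the control libraries and at 2954, 2843 and 2785 TPM at 3 days (log2 change 1.19 ± 0.053 SE, adjusted p = 7.14e-10). EF1ALPHA, a translation elongation factor often used as a reference, stood at 1528, 1617 and 1626 TPM in the control libraries and at 3085, 3213 and 3049.9 TPM at 3 days (log2 change 0.97 ± 0.055 SE, adjusted p = 6.81e-09). RAN-1 was about as high in each 3-day library, and its response exceeded that of WT by 2.78 ± 0.069 (SE, adjusted p = 1.09e-10). The reference genes as a list were not stable, since 8 rose and 6 fell of 14. XTH11, a xyloglucan enzyme, stood at 0.16, 0.22 and 0.74 TPM in the control libraries and at 197, 205 and 211 TPM at 3 days (log2 change 7.25 ± 0.33 SE, adjusted p = 9.49e-10). PUM9, a Pumilio RNA-binding protein, stood at 0.04, 0.11 and 0.06 TPM in the control libraries and at 152, 168 and 155 TPM at 3 days (log2 change 7.22 ± 0.071 SE, adjusted p = 1.55e-14). GASA6, a gibberellin-regulated peptide, stood at 584, 518 and 476 TPM in the control libraries and at 1.4, 0.64 and 1.52 TPM at 3 days (log2 change -7.93 ± 0.14 SE, adjusted p = 3.86e-13). GER1, a germin-like protein, stood at 1162, 1051 and 1109 TPM in the control libraries and at 5.0, 4.32 and 3.57 TPM at 3 days (log2 change -7.72 ± 0.095 SE, adjusted p = 4.29e-14). XTH11 and PUM9 were near 0 in the control libraries, and GASA6 and GER1 were low in every 3-day library. The difference from WT was 3.81 ± 0.47 (SE, adjusted p = 1.58e-05) for XTH11, 1.42 ± 0.1 (SE, adjusted p = 1.36e-07) for PUM9 and -5.35 ± 0.2 (SE, adjusted p = 8.29e-10) for GASA6.

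Set against the WT response over the same labels, most genes differed. The difference of responses, mutant minus WT, was called higher for 4620 genes and lower for 12657, with a median of -0.55. That split depended on scaling: it was 8262 and 8491 under median-of-ratios scaling and 8319 and 7800 under quantile normalization. Direction was therefore read only where it held under all 3 scalings. The ER list (16 higher and 3 lower, and 18 and 1 under median-of-ratios scaling), the proteasome list (29 higher and 1 lower, 31 and 0) and the autophagy list (17 higher and 1 lower, 21 and 0) lay above WT. The table's own autophagy pathway did not hold its direction (29 higher and 41 lower as deposited, 51 and 18 under median-of-ratios scaling). The glucosinolate (2 higher and 27 lower, 3 and 26), anthocyanin (1 higher and 21 lower, 1 and 21) and starch lists (2 higher and 26 lower, 3 and 23) lay below. The small heat shock proteins gave no common direction: 4 higher and 8 lower as deposited and 7 and 5 under median-of-ratios scaling. The lowest and the highest called differences in the list were -2.51 ± 0.2 SE, adjusted p = 3.12e-07 for HSP23.5 and 1.36 ± 0.14 SE, adjusted p = 2.29e-06 for HSP21.7.

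**Figure D5:**
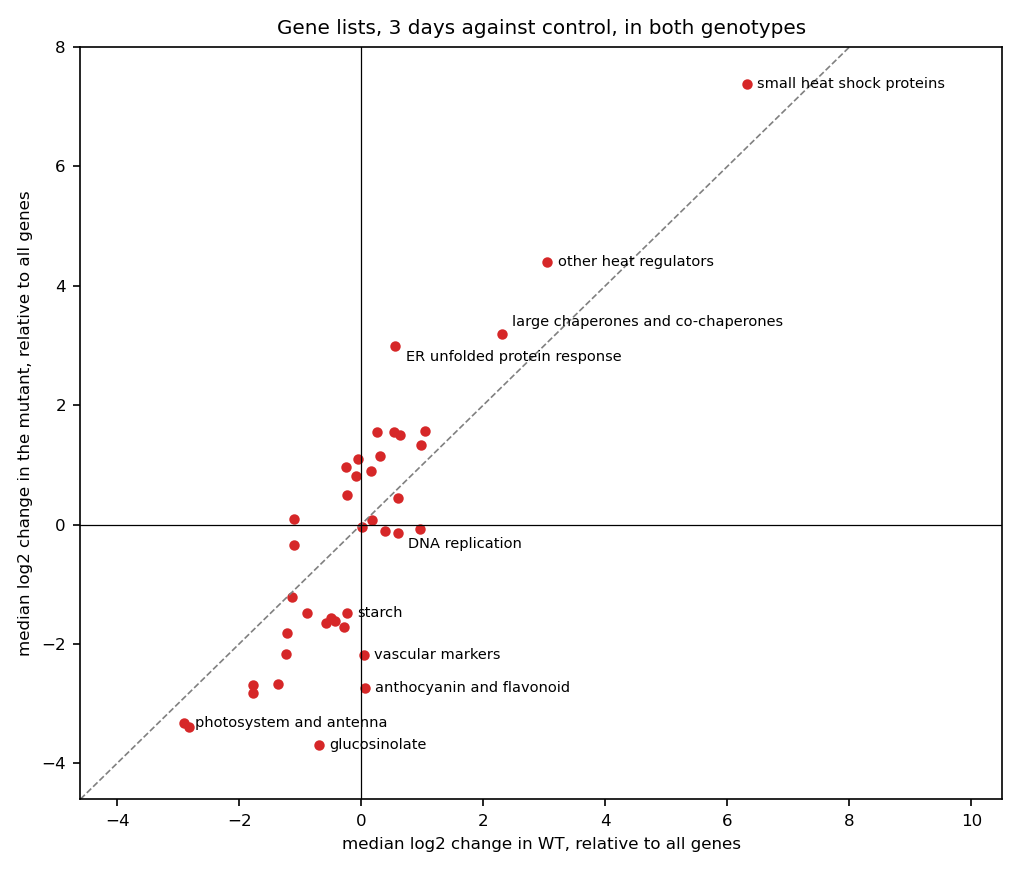
Median log2 change of 40 gene lists at 3 days against control, relative to all genes, in WT (horizontal) and in the mutant (vertical), with a dashed line of equal change. ER genes lie well above the line, and glucosinolate, anthocyanin and vascular lists well below it.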

How the data were processed

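The authors deposited 1 table of TPM values for 12 libraries, 3 in each of 4 groups, with gene descriptions, GO and pathway columns. Per the submitters' processing notes they used RSEM and the TAIR10 build, with no versions given, and per the labels' protocols the libraries came from oligo dT-enriched RNA of seedlings. TPM keeps no depth, so the reads behind a value are unknown and no counting interval is given.

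A gene was tested if 3 or more of the 12 libraries held it at 1 TPM or above, which left 22462 of 37825. The log2(TPM + 1) values were fitted in limma 3.58.1 (R 4.3.3) with 1 mean per group over all 12 libraries and an intensity trend in the variance. Adjusted p-values are Benjamini-Hochberg values over all genes kept, called under 0.05. The contrast was mutant 3 days minus mutant control, and the difference of responses subtracted the same contrast in WT. The fit was tested on simulated data. Organelle and ribosomal RNA classes follow IDs and descriptions. Symbols came from RefSeq, in which 37572 of 37825 rows had an entry, and 49 list entries were matched by a locus given by hand.

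Named genes were the targeted genes, the 12 largest called increases and decreases among genes with a symbol, a mean of 5 TPM or more in the higher group and no overlap between libraries, up to 2 called members per list and direction (the most abundant where none was called), the 2 called members that changed most in each of the 10 pathways and 10 GO terms with the highest and the lowest medians (leaving out those of other organism groups and those that share most genes with one already taken), and the 10 genes highest at 3 days. This rule took in 205 genes, not all of which are described, and 1 is not reported here. Another 39 genes were named after their values were seen. The comparison, the lists and the tests were chosen with earlier results of these data known. Alternatives were 2 other scalings, other filters and pseudocount, a robust prior, fits on the mutant alone, without ribosomal and organelle genes, with a replicate block and without each library. Same-numbered libraries did not deviate together (correlations -0.058, -0.0473 and -0.0307), so replicate numbers were not treated as pairs. Promoter motifs were not analysed here.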

Additional observations from a re-analysis of the deposited data

Results flagged for a closer look

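13 genes named above or in this section were called in opposite directions in the 2 genotypes, with a called difference of responses, in the TPM values as deposited and under both other scalings. Differences are mutant minus WT, in log2 units from limma. In groups of 3 no library was tested as standing apart.

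GBSS1 changed by -5.22 in the mutant and 1.53 in WT, a difference of -6.75 ± 0.11 (SE, adjusted p = 1.81e-11). DFR changed by -5.86 in the mutant and 0.75 in WT, a difference of -6.61 ± 0.13 (SE, adjusted p = 3.42e-11). LDOX changed by -5.37 in the mutant and 0.83 in WT, a difference of -6.20 ± 0.24 (SE, adjusted p = 1.12e-09). XCP2 changed by -3.33 in the mutant and 2.00 in WT, a difference of -5.33 ± 0.16 (SE, adjusted p = 2.65e-10). RVE8 changed by -3.39 in the mutant and 0.82 in WT, a difference of -4.22 ± 0.23 (SE, adjusted p = 1.44e-08). HSP90.5 changed by -0.74 in the mutant and 2.36 in WT, a difference of -3.10 ± 0.11 (SE, adjusted p = 5.95e-10). XRI1 changed by -1.50 in the mutant and 1.55 in WT, a difference of -3.05 ± 0.1 (SE, adjusted p = 5.00e-10). LHY changed by -1.94 in the mutant and 1.00 in WT, a difference of -2.95 ± 0.12 (SE, adjusted p = 2.08e-09). TT4 changed by -0.69 in the mutant and 2.21 in WT, a difference of -2.90 ± 0.13 (SE, adjusted p = 3.19e-09). NPR4 changed by -1.12 in the mutant and 1.05 in WT, a difference of -2.17 ± 0.15 (SE, adjusted p = 1.13e-07). CPN60A changed by -0.93 in the mutant and 0.75 in WT, a difference of -1.68 ± 0.12 (SE, adjusted p = 2.12e-07). LOX5 changed by 1.16 in the mutant and -0.32 in WT, a difference of 1.48 ± 0.14 (SE, adjusted p = 1.56e-06). TPS9 changed by 2.80 in the mutant and -0.86 in WT, a difference of 3.66 ± 0.2 (SE, adjusted p = 1.69e-08). For each gene the 3 mutant libraries per group were set against 3 WT libraries. Over all genes, 358 were called higher in the mutant and lower in WT and 2926 the reverse in the values as deposited, against 1337 and 1182 under median-of-ratios scaling and 1247 and 1225 under quantile normalization.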

How the results depend on the processing

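The counts of genes moved little with most choices. Against 8857 higher and 10438 lower genes, the fit gave 9725 and 9661 under median-of-ratios scaling, 10036 and 9196 under quantile normalization, 10240 and 11040 of 30743 with no filter, 7530 and 8395 of 17820 with a minimum of 5 TPM, 8899 and 10476 with a pseudocount of 0.1, 8712 and 10238 from the mutant libraries alone, 8836 and 10424 with a robust prior and 9165 and 10104 without ribosomal RNA and organelle genes. A replicate block gave 8820 and 10404, and same-numbered libraries correlated no better than others, at -0.058, -0.0473 and -0.0307 against up to 0.102 for other numbers. Leaving out each mutant library gave 8611 to 8770 higher and 10169 to 10453 lower genes, of which 4916 to 4985 and 6607 to 6793 by at least 2-fold. The difference from WT, higher in 4620 and lower in 12657 genes, went to 8262 higher under median-of-ratios scaling and to 8319 higher and 7800 lower under quantile normalization, and to 4434 to 4617 higher and 12285 to 12685 lower without single libraries. The cause was not tested. The sign of the response reversed for 6 named genes, of which HEN1, a microRNA methyltransferase, had passed the test (log2 change -0.39 as deposited, 0.17 under quantile normalization) and the others had not. Under median-of-ratios scaling the values were 0.05 for MAC3B and 0.15 for LHCB4.3, and under quantile normalization 0.23 for MAC3B, -0.24 for CLPB3, -0.10 for CRT3 and 0.06 for LHCB4.3. LHCB4.3 stood at 0.04 without ribosomal RNA and organelle genes and at -0.19 to 0.08 without single libraries, and AT3G41768 at -0.05 to 0.40 without single libraries, below 0 without replicate 1 of either group. Of 244 named genes 232 kept direction and call of the response in every setting, and of 159 with a called difference of at least 1 in log2 units 152 kept theirs. List medians relative to all genes moved by less than 1 SD of the replicates in 487 values and by more in 128. The direction of the list median changed with scaling for the targeted genes, carbon starvation, oxidative stress, jasmonate, clock, DNA replication and DNA damage lists. With 3 libraries against 3, an exact permutation test of 1 gene cannot go below p = 0.1, so calls rest on the spread that limma shares across genes. TPM gives no depth, and changes of genes near 0 are the least certain.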

Other observations

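Several gene groups of the GO column have not been described so far. Genes for the structural constituents of chromatin fell in 47 of 63 cases and rose in 13 (median -1.69 relative to all genes). Kinesins, the microtubule motors, fell in 29 of 32 and rose in 2 (median -1.55). Pectate lyases, which cut wall pectin, fell in 19 of 20 (median -1.81). Cytosolic ribosome genes fell in 129 of 226 and rose in 64 (median -0.27). Translation initiation factors instead rose in 71 of 114 and fell in 36 (median 0.79).

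Vacuolar transport genes rose in 25 of 32 and fell in 7 (median 1.05). Nuclear pore genes rose in 30 of 47 and fell in 12 (median 0.84). Heat acclimation genes rose in 39 of 52 and fell in 10 (median 1.15). The oxidative phosphorylation pathway rose in 98 of 182 and fell in 48 (median 0.51), or in 93 and 60 under quantile normalization. Its median before subtraction was 0.38 in the mutant and 0.53 in WT. Its highest log2 change, 9.56, is the value given above for AT2G07671, whose reads cannot be told from those of the organelle. How many such loci the pathway holds was not counted. These GO terms and this pathway were picked after their counts were seen, their genes overlap, and no test was run on them. Over all genes 39.4% rose and 46.5% fell.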
